A study of Mus musculus with 6 samples.

Results

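The vomeronasal type 1 receptor genes (Vmn1r) are a family known to be silent outside the vomeronasal organ, and they were examined as a closed-chromatin contrast in a kidney accessibility map. Members were the protein-coding genes of the GENCODE M39 annotation named Vmn1r followed by a number. The rule found 230 members among 21757 protein-coding genes on the 21 chromosomes of the map, and it used no measured value. Accessibility had been profiled by ATAC-seq, in which the Tn5 transposase cuts open DNA in isolated nuclei, from the kidneys of 3 wild-type (WT) mice and 3 mice with tubule-specific deletion of Acly (Acly cKO), the gene of the enzyme that makes cytosolic acetyl-CoA from citrate. Both groups carried the treatment label Control. By the study's methods the tissue was kidney cortex, both groups were floxed for Acly (Acly fl/fl), Acly cKO mice also carried Ksp-Cre (Cdh16-Cre), which recombines in tubular epithelium and leaves other kidney cells intact, and WT mice were littermates without Cre. The methods give an age for the mice of the injury models and do not say whether it covers the mice used here. WT libraries were labelled batches 1, 1 and 2 and Acly cKO libraries batches 4, 4 and 5. No batch held both groups, whose differences cannot be told apart from those between batches.

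The data were 1 list of accessible intervals, called, by its peak names, on all libraries pooled. The study also used earlier WT libraries, and the list does not show which libraries entered the pool. No value belonged to a library or genotype, so there was no replicate spread, no genotype comparison and no test, and the depth of each library is unknown. The list held 279569 distinct intervals in GRCm39 coordinates. Each was described at its highest summit, the point of densest cutting, by its fold enrichment (cut signal over the caller's background, a linear ratio). It was also described by -log10 q, where q is the p-value corrected for the number of positions scanned. Among the intervals at Vmn1r genes, equal fold enrichments carried equal -log10 q, so they are not separate measures. The lowest fold enrichment in the list was 1.70. A gene was counted as having an interval when one lay within 1 kb of it, and its 5′ end as having one when an interval lay within 1 kb of that end.

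V1R receptors are G protein-coupled receptors that detect pheromones and other social odours. They are made in the apical sensory neurons of the vomeronasal organ, where they act through the G protein subunit Gαi2 and the cation channel Trpc2, and each neuron expresses a single receptor gene. The genes lie in clusters of close copies, most with the coding sequence in a single exon, and they are kept silent outside these neurons by repressive chromatin.

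Most Vmn1r genes had no accessible interval in the kidney. Of the 230 members, 210 (91.3%, 95% Wilson interval 87.0 to 94.3) had none within 1 kb, beside 17.2% of all protein-coding genes. Wilson intervals here cover counting error only, over genes that share sequence and position. An interval lay within 1 kb of the 5′ end of 8 members (3.48%, 1.77 to 6.71), beside 74.3% of all protein-coding genes. Intervals at a q under 1e-05 were found at 7 members, beside 79.9% of all protein-coding genes, and intervals of at least 5-fold enrichment at 6 members, beside 74.4%. The receptor genes and the 1 kb on either side of them held 26 intervals in 2.01 Mb, or 12.9 per Mb, compared with 164 per Mb over all protein-coding genes and 106 per Mb over the assembled genome. Intervals covered 0.644% of the bases around Vmn1r genes, 16.0% around all protein-coding genes and 9.47% of the genome.

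**Figure D1:**
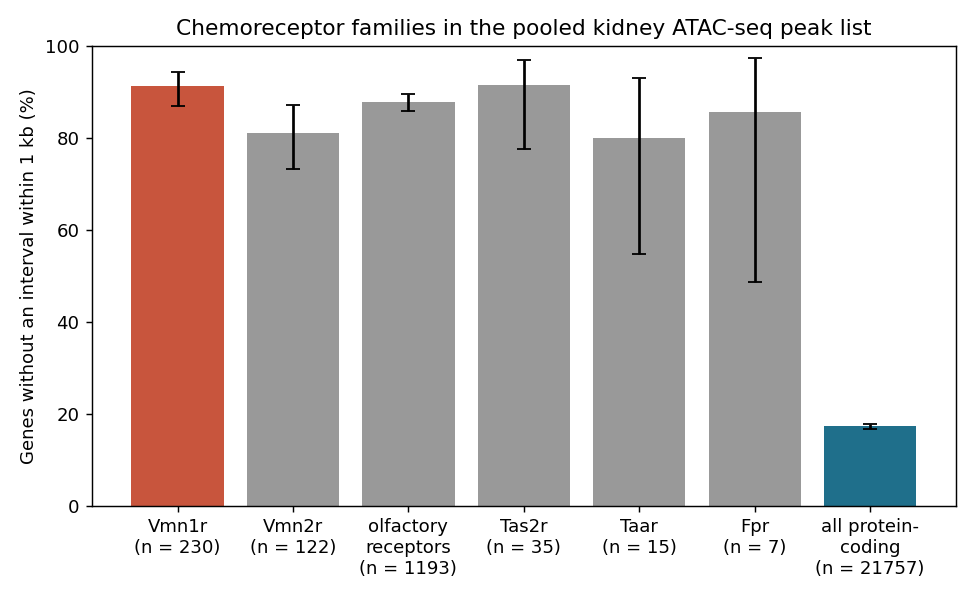
Percentage of genes of each chemoreceptor family without an interval within 1 kb (bars, with 95% Wilson intervals as error bars and the number of genes under each bar). The bar for Vmn1r stood at 91.3%, the other receptor families stood between 80.0% and 91.4%, and all protein-coding genes stood at 17.2%.

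Most genes of the other chemoreceptor families also lacked an interval. The type 2 vomeronasal receptors (Vmn2r), which are made in basal vomeronasal neurons, lacked an interval at 99 of 122 genes (81.1%, 73.3 to 87.1), although their median span of 27160 bp was longer than the 6113 bp of Vmn1r genes. The olfactory receptors of the main olfactory epithelium lacked one at 1047 of 1193 genes (87.8%, 85.8 to 89.5), and the bitter taste receptors (Tas2r) at 32 of 35 (91.4%, 77.6 to 97.0). The trace amine receptors (Taar) lacked one at 12 of 15 genes (80.0%, 54.8 to 93.0) and the formyl peptide receptors (Fpr), some of which serve the vomeronasal organ and others immune cells, at 6 of 7 (85.7%, 48.7 to 97.4). At the 5′ end, 1 of the Vmn2r genes (0.82%) and 37 of the olfactory receptors (3.10%) had an interval. The density of intervals was 8.59 per Mb at Vmn2r genes and 20.6 per Mb at olfactory receptor genes. Differences between these families were not tested.

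The sequence under the accessible sites shows what lay at the few receptors with an interval. The 101 bases centred on a summit are printed below for 6 intervals of named members that lie outside untranslated exons, on the strand of the receptor gene, 5′ to 3′, from GRCm39. The first covers the coding exon of Vmn1r4 (chr6:56933593-56933693), the second is intronic in Vmn1r4 (chr6:56909180-56909280), and the next pair lies upstream of Vmn1r219 (chr13:23342164-23342264) and Vmn1r40 (chr6:89683797-89683897). The last pair lies in an intron of Vmn1r20 (chr6:57408314-57408414) and downstream of Vmn1r26 (chr6:57981369-57981469). Capitals mark letters that match a motif searched on both strands: TGANTCA (AP-1), AGGGGGC (part of the CTCF site) or CCCNNGGGA (EBF). The windows of named members at Vmn1r200 (2.16-fold) and downstream of Vmn1r20 (2.10-fold) are left out, and neither held such letters in its 101 bases. Every 101-base window at a member that held such letters is printed, so capitals are more frequent here than over all member windows.
Vmn1r4 coding exon: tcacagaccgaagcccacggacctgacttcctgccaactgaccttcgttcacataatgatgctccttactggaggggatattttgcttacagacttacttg
Vmn1r4 intron: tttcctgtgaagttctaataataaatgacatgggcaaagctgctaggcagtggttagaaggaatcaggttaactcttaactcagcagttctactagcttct
Vmn1r219 upstream: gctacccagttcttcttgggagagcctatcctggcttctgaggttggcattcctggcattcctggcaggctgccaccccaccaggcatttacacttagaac
Vmn1r40 upstream: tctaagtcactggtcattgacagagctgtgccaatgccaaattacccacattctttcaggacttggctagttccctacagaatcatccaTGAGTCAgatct
Vmn1r20 intron: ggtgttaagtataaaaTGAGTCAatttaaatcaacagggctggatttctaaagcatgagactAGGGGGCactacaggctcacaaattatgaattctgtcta
Vmn1r26 downstream: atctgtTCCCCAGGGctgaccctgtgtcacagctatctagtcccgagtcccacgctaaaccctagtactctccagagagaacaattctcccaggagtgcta

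The shares of summits with AP-1 and CTCF letters were near those over all intervals. In the 200 bases around each of the 26 summits, AP-1 letters were found in 3 windows (11.5%, at Vmn1r40, Vmn1r20 and Vmn1r210), beside 12.4% of windows over all intervals. EBF letters, those of factors that regulate olfactory and vomeronasal neurons, were also found in 3 (11.5%, at Vmn1r200, Vmn1r26 and Vmn1r229), beside 3.82%. The CTCF letters were found in 1 (3.85%, at Vmn1r20), beside 4.16%. The letters GTTAATNAT (HNF1) and CAAAGTCCA (HNF4), for regulators of proximal tubule genes, were found in 0 windows of 26, beside 1.29% and 0.884%. A match is a description of the letters and not evidence of binding. Of the 101-base windows, 14 of 26 held no CpG. The share over all intervals was not counted, so this is not shown to be particular to these sites.

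Vmn1r4 held the strongest intervals of the family. The gene (ENSMUSG00000071893.8, plus strand, chr6:56901000-56935085) had 3 intervals, and they ranked as the 3 strongest of the family. The strongest, chr6:56892645-56903413, was 10769 bp wide with 25 summits, and reached 66.39-fold enrichment with a -log10 q of 1441, above 99.5% of all intervals. Its highest summit lay 73 bp upstream of the annotated 5′ end of Vmn1r4. The same summit lay 87 bp inside Nt5c3 (ENSMUSG00000029780.16), a 5′-nucleotidase gene that runs on the opposite strand (chr6:56858297-56901014) and shares 15 bp with Vmn1r4. The 101 bases at that summit held 14 CpG sites at 76.2% GC. Accessibility at the 2 starts cannot be told apart. This was the only member interval within 1 kb of the start of a protein-coding gene outside the family, and without it the share of 5′ ends with an interval was 3.04%.

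The other intervals of Vmn1r4 did not overlap the start of Nt5c3. The interval over its coding exon, chr6:56933211-56934474, reached 19.64-fold with a -log10 q of 272 and lay 32197 bp from the start of Nt5c3, the nearest of a protein-coding gene outside the family, and 12784 bp from the start of the neighbouring receptor gene Vmn1r5. It contained all 891 coding bases of Vmn1r4, and was the only one of the 26 whose summit lay in the coding exon of a member. The summit was 32643 bp downstream of the annotated 5′ end. The intronic interval, chr6:56908052-56909796, reached 8.58-fold with a -log10 q of 74.7, 7038 bp from the start of Nt5c3. The 50-base words of these intervals that occur once in the genome made up 96.8% and 98.4% of all their words.

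The remaining strong intervals lay at single sites around the genes. The interval upstream of Vmn1r219, chr13:23341812-23342619, reached 8.25-fold (-log10 q 70.0) with its summit 1268 bp before the 5′ end. The interval upstream of Vmn1r40, chr6:89683605-89684000, reached 6.15-fold (-log10 q 41.7) with its summit 675 bp before the 5′ end. Neither gene's 5′ end lay inside its interval, since the edges were 863 bp and 522 bp away. The interval of Vmn1r234, chr17:21451841-21452635, reached 6.09-fold (-log10 q 40.9) in an untranslated exon 5785 bp past the 5′ end. Vmn1r42 and Vmn1r43 are annotated over the same stretch and shared both of their intervals. The stronger, chr6:89844225-89845296, reached 6.02-fold (-log10 q 40.1), and the weaker, chr6:89836842-89837142, reached 3.08-fold (-log10 q 9.69). Both summits lay in introns of Vmn1r42 that coincide with untranslated exons of Vmn1r43, 8230 bp and 16417 bp past the shared 5′ end.

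**Figure D2:**
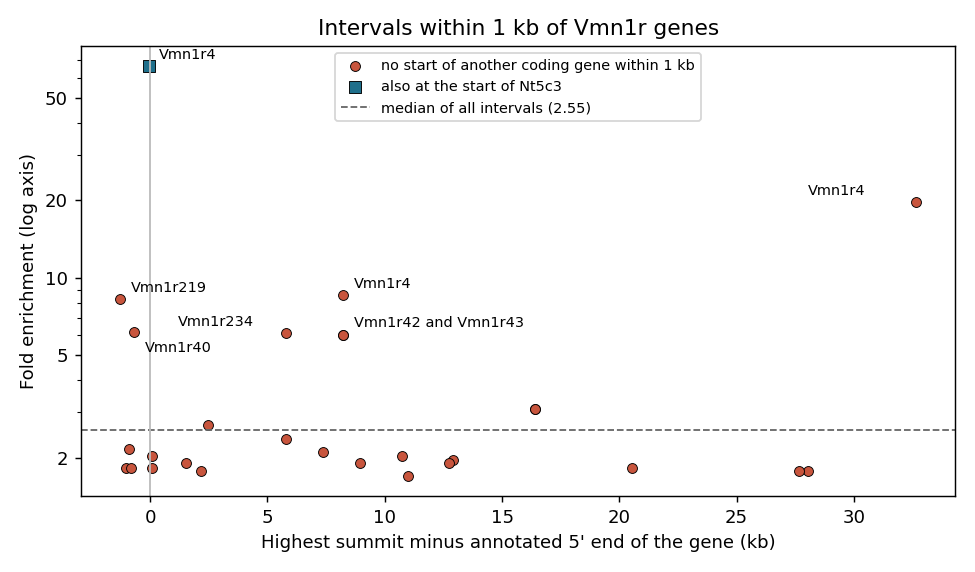
Fold enrichment (vertical, log axis) against the position of the highest summit relative to the annotated 5′ end of the gene (horizontal, kb, negative upstream) for the 28 pairs of a Vmn1r gene and an interval. The square is the interval shared with the start of Nt5c3 at 66.39-fold, the intervals of at least 5-fold are named, and the dashed line is the median of all intervals, 2.55.

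The other intervals had fold enrichments of 2.68 or less. Vmn1r20 had an intronic interval at 2.68-fold (-log10 q 6.79) and another downstream of the gene at 2.10-fold. The intervals of Vmn1r202, Vmn1r200, Vmn1r210, Vmn1r26 and Vmn1r18 had their highest values at 2.36, 2.16, 2.03, 2.03 and 1.96-fold. The other 8 members with an interval complete the count, and apart from Vmn1r69 they were named after their values were seen. They were Vmn1r199, Vmn1r22, Vmn1r195, Vmn1r214, Vmn1r68, Vmn1r69, Vmn1r88 and Vmn1r229, with highest values from 1.70 to 1.90-fold. Vmn1r69 had 3 intervals, as many as Vmn1r4, but at 1.83, 1.77 and 1.77-fold. Fold enrichments below 20 came in whole steps of 0.0655, to within 0.05 of a step, and the lowest value in the list was 26 steps, so the median receptor interval, at 31 steps, stood only a few steps above the limit of calling.

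The intervals at Vmn1r genes had a lower median fold enrichment and a smaller median width than all intervals, while the share of strong intervals was near that of the genome. Their fold enrichment had a median of 2.03, with quartiles of 1.83 and 5.29, beside 2.55, 1.96 and 4.91 for all intervals. The median -log10 q was 2.84 against 5.91. A q under 1e-05 was met by 9 of the 26 (34.6%) beside 54.9% of all intervals, while at least 5-fold enrichment was met by 7 (26.9%) beside 24.5%. Below the genome's median fold enrichment lay 17 of the receptor intervals, and 9 lay above it. The median width was 254 bp against 434 bp, and 21 of the 26 (80.8%) had a single summit, against 53.4%.

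**Figure D3:**
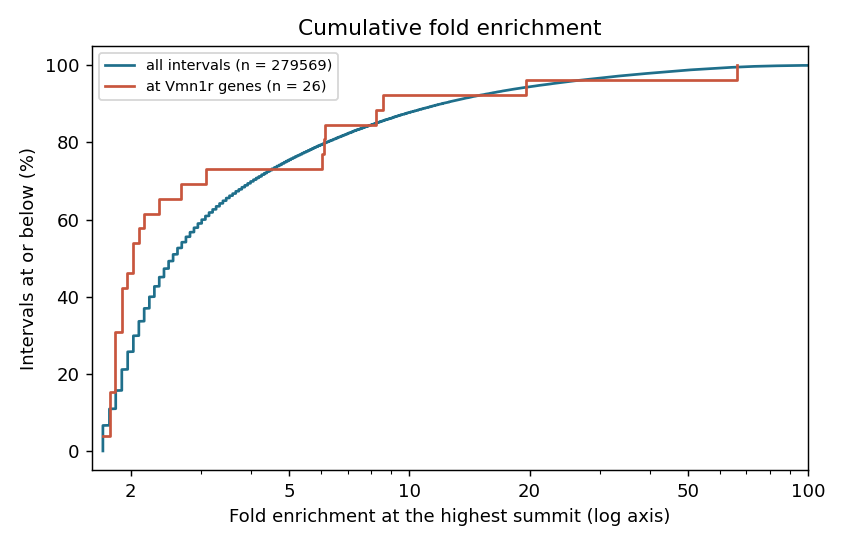
Percentage of intervals at or below each fold enrichment (horizontal, log axis) for the 26 intervals at Vmn1r genes and for all 279569 intervals. The receptor curve rose first, with a median of 2.03 against 2.55, and met the curve of all intervals in its upper part, where 26.9% and 24.5% of intervals reached at least 5-fold.

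Of the 20 members with an interval, 8 had one within 1 kb of the 5′ end. The share of all intervals that lie at gene starts was not counted. The 28 pairs of a gene and an interval count the 2 intervals shared by Vmn1r42 and Vmn1r43 at both genes. Over these pairs, the highest summit lay in an untranslated exon in 10, in an intron in 9, upstream in 6, downstream in 2 and in the coding exon in 1. The intervals of 14 members were single, 4 members had 2 and 2 members had 3. Of the 26 intervals, 19 overlapped a gene and the others lay beside it within 1 kb, while the nearest interval to any member without one was 1.24 kb away. Promoters of genes other than Vmn1r were mostly distant, with 24 of 26 intervals over 10 kb from the start of a protein-coding gene outside the family and a median distance of 127546 bp.

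The annotated 5′ end itself lay inside an interval for 2 members, Vmn1r4 and Vmn1r210. At Vmn1r210 the interval chr13:23015345-23015570 reached 2.03-fold (-log10 q 2.84) with its summit 84 bp past the 5′ end. At Vmn1r214, whose position was noticed after the values were seen, the summit lay 72 bp past the 5′ end at 1.83-fold (-log10 q 1.91), with the edge of the interval 20 bp away. Both genes lie in the cluster on chromosome 13, and the 101 bases at the summit of Vmn1r210 were found at 94.1% identity near the 5′ end of Vmn1r214. The same stretch was present at 80% identity or more within 1 kb of the 5′ end of 15 members, Vmn1r210 included, all in the chromosome 13 cluster, and in 13 of them its middle lay within 250 bp of that end. Of those 13, an interval was found at the 5′ end of 2, Vmn1r210 and Vmn1r214. The copy with the highest identity to Vmn1r210, Vmn1r188 at 95.0%, had no interval. Around the 5′ end, the share of words that occur once in the genome was 99.3% at Vmn1r210 and 94.0% at Vmn1r214. It was 85.0% at Vmn1r188, and 98.8% and 99.8% at Vmn1r213 and Vmn1r199, which also had no interval. The remaining copies of the 13 had none either and ran from 38.3% to 89.0%. Only uniquely mapped reads were kept, and whether this limit accounts for copies without an interval was not tested.

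The members lie in 10 clusters of 2 or more genes, joined where neighbours were at most 1 Mb apart, which held 225 members, and at 5 single loci, which had no interval. Intervals were found at members in 5 of the clusters. On chromosome 13, 7 of 35 members in 1.17 Mb had an interval. On chromosome 6, the cluster from Vmn1r4 to Vmn1r31 had 5 of 28 members with an interval, and the cluster from Vmn1r40 to Vmn1r54 had 3 of 15. The cluster on chromosome 17 had 2 of 14, and on chromosome 7 the cluster from Vmn1r66 to Vmn1r89 had 3 of 24. The other 5 clusters, with 109 members, had none.

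The largest cluster was the emptiest stretch. From Vmn1r91 to Vmn1r183 on chromosome 7, chr7:19833605-23762979, 0 of 86 members had an interval, and the 3.93 Mb held 15 intervals in all, or 3.82 per Mb. The 17 other protein-coding genes annotated inside it also had none. Vmn1r129, which lies in it and is named as the extreme, was 1370 kb from the nearest interval. Across the 10 clusters the density was 26.7 intervals per Mb, against 106 per Mb over the genome. Single clusters differed widely. The shortest, from Vmn1r2 to Vmn1r3 on chromosome 4, held 7 intervals in 0.018 Mb, or 388 per Mb, though neither member had one within 1 kb. The next highest was 75.4 per Mb, in the chromosome 6 cluster that begins with Vmn1r4.

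Some genes of other kinds inside the clusters had an interval where the receptors around them had none, a difference that was not tested. Of 69 other protein-coding genes there, 60 were not chemosensory receptors. An interval at the 5′ end was found at 27 of those 60 (45.0%), beside 74.3% of all protein-coding genes. The cluster counts below are of intervals within 1 kb of the gene, with no allowance for gene length. In the chromosome 6 cluster that begins with Vmn1r4, 6 of 6 other protein-coding genes had an interval while 23 of 28 receptors had none. These 6, like the 60 above, include Nt5c3, which overlaps the cluster by only 15 bp. The interval at its start is the one also counted at Vmn1r4. In the chromosome 7 cluster from Vmn1r66 to Vmn1r89, 19 of 32 other protein-coding genes had an interval while 21 of 24 receptors had none. Of those 32, 4 were themselves chemosensory. Other protein-coding genes of the remaining clusters had an interval at 3 of 6 on chromosome 17 and 0 of 1 on chromosome 6. On chromosome 7 the remaining clusters had 1 of 3, 0 of 17 and 1 of 4. Members without an interval had a median distance of 35.6 kb to the nearest one, with quartiles of 16.7 and 226 kb, compared with 19.7, 7.09 and 57.8 kb for other protein-coding genes without an interval.

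Receptor copies are close in sequence, and the authors kept only uniquely mapped reads of 50 bp. As a proxy for how much of each gene a single such read could place, the share of 50-base words that occur once in GRCm39 was measured. Words were compared on both strands. The reads were paired, and placement by the other read of a pair was not modelled. Over the 230 gene regions the share ran from 0% to 100% with a median of 78.7%. Members with an interval ranged from 77.0% to 98.6% with a median of 92.4%, and those without from 0% to 100% with a median of 71.6%. All 80 members with under 50% unique words lacked an interval. Of these, 71 lay in the large chromosome 7 cluster, where the median over its 86 members was 2.09%. At these genes closed chromatin and sequence that single reads cannot place cannot be told apart.

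Where the sequence was nearly all unique, most receptors still had no interval. Of 88 members with at least 90% unique words, 74 lacked one (84.1%, 75.0 to 90.3). Of 62 members with 50% to 90%, 56 lacked one (90.3%, 80.5 to 95.5). In the 2 kb around the 5′ end the comparison needs no allowance for gene length. With at least 90% unique words there, 8 of 96 members (8.33%, 4.28 to 15.6) had an interval at the 5′ end, compared with 15325 of 18896 protein-coding genes (81.1%). With under 50%, the figures were 0 of 85 members and 120 of 1141 protein-coding genes (10.5%).

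**Figure D4:**
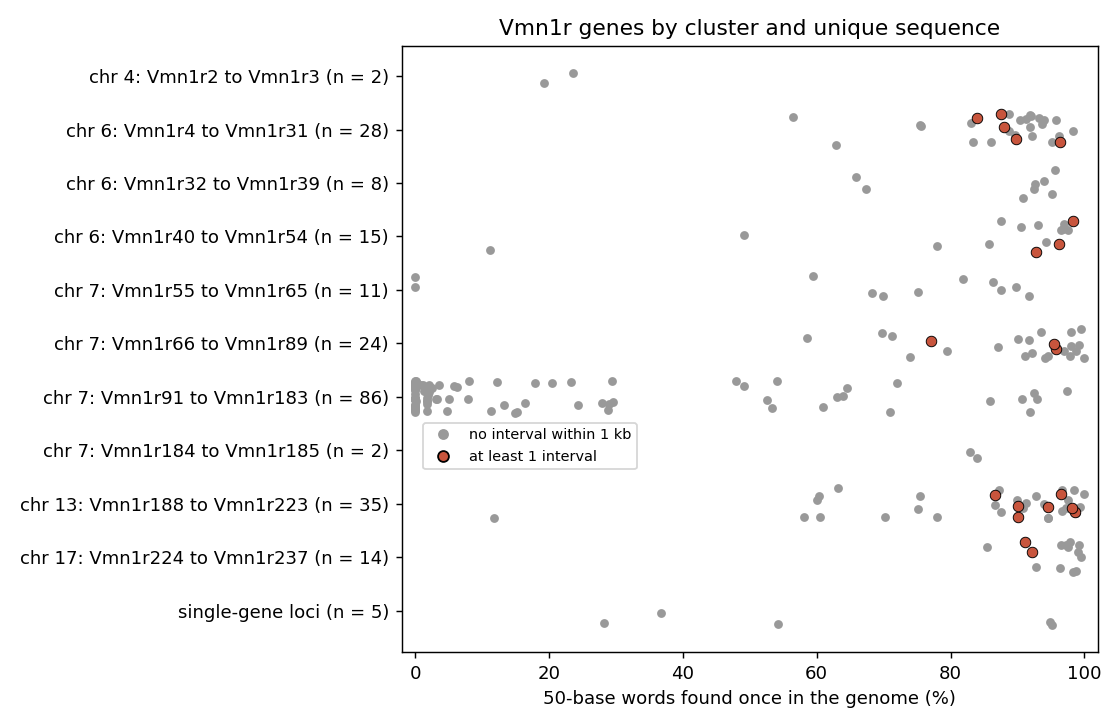
Each point is 1 Vmn1r gene, placed by the percentage of its 50-base words that occur once in the genome (horizontal) and by its cluster (rows, with vertical scatter for display only). Members with an interval lie between 77.0% and 98.6%, and the row of 86 genes on chromosome 7 has a median of 2.09% and no member with an interval.

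Gene length moved with the count as well. Members spanning under 2 kb had no interval in 83 of 83 cases, beside 60.3% of protein-coding genes of that length. Between 2 and 10 kb, 84 of 94 members (89.4%) had none, beside 33.3%, and from 10 kb upwards 43 of 53 (81.1%), beside 7.14%. All 75 members whose annotation starts at the coding sequence lacked an interval (95.1 to 100%), as did 135 of the 155 with annotated sequence upstream (87.1%, 80.9 to 91.5). The 75 are among the 83 under 2 kb, and most lie in the large chromosome 7 cluster with a median of 2.09% unique words. For them, length, annotation and lack of unique sequence cannot be told apart. For the 75, the true start of transcription may lie outside the window searched, and this was not tested.

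The promoters of the receptors were poor in G and C. In the 300 bases from 250 before to 50 after the 5′ end, the 155 members with annotated upstream sequence had a median GC of 39.3%, beside 52.3% over all protein-coding genes. Their median ratio of observed to expected CpG was 0.0733 beside 0.433, and 40.0% held no CpG, beside 5.62%. Only 4 (2.58%) reached 50% GC, beside 60.1%. Protein-coding genes without an interval at the 5′ end lay between these values, with a median GC of 44.0% and a CpG ratio of 0.150, while those with one had 55.3% and 0.580. The 8 members with an interval there had a median GC of 46.5% (37.0 to 73.7). The letters TATAAA were found in 33 of the 155 windows (21.3%), beside 13.7% of all protein-coding genes and 25.6% of those without an interval at the 5′ end, and the EBF letters in 2 (1.29%), beside 6.91%.

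The genes that work with the receptors had intervals in the same list. All 31 genes of the receptor pathway that were listed had an interval at the 5′ end, beside 74.3% of all protein-coding genes. In 23 of the 31 it reached 5-fold or more, beside 64.3% of all protein-coding genes. Among the 8 signal transduction genes the median was 9.43-fold. Gnai2, which encodes the G protein subunit coupled to V1R receptors and is used in many tissues, reached 55.65-fold, and Gnao1, its counterpart for V2R receptors, reached 23.9-fold. Itpr3, an intracellular calcium channel, reached 15.97-fold. The channel Trpc2 stood at 1.77-fold (-log10 q 1.64), near the lowest values in the list, and the chloride channel Ano1 at 1.70-fold. Omp, the olfactory marker protein gene, reached 27.82-fold. These values do not show whether such an interval also lies at the start of another gene.

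The pair of axon adhesion genes, Kirrel2 and Kirrel3, stood at 2.88 and 7.53-fold. Among 10 regulators of vomeronasal neurons the median was 15.58-fold, with the stress-response factor Atf5 at 71.36-fold, Ebf2 at 41.57-fold and Tfap2e, which shapes basal vomeronasal neurons, lowest at 3.40-fold. Among 11 genes of the machinery that silences chemoreceptor genes, the median was 25.99-fold. The histone H3 lysine 9 methyltransferases Suv39h2 and Ehmt1 reached 56.37 and 44.65-fold, and the heterochromatin protein gene Cbx5 48.64-fold. Trim28 stood at 1.96-fold at its annotated 5′ end but at 75.68-fold within 1 kb of the gene, and Lbr, the lamin B receptor, at 3.01 and 53.95-fold.

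**Figure D5:**
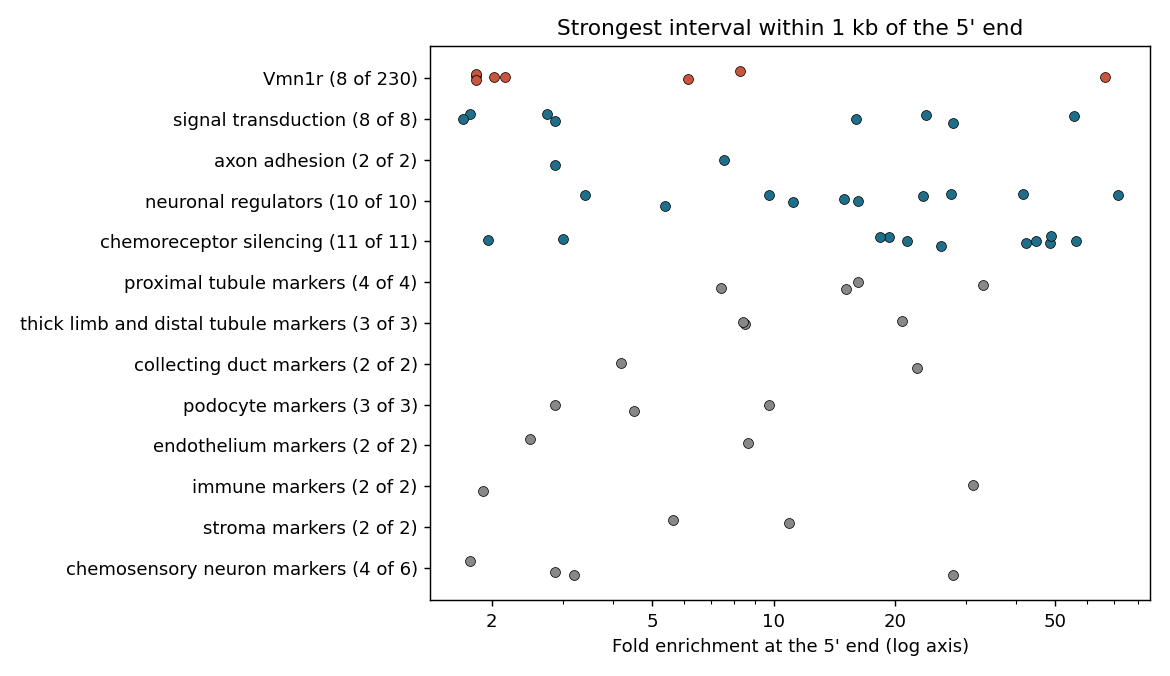
Fold enrichment (log axis) of the strongest interval within 1 kb of the 5′ end, 1 point per gene, for Vmn1r genes, 4 groups of pathway genes and 8 groups of cell markers, with the number of genes that had such an interval out of the number listed. Of the 230 Vmn1r genes 8 appear, from 1.83 to 66.39-fold, while all 31 pathway genes appear, from 1.70 to 71.36-fold.

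Cell markers were looked up in the same list. An interval at the 5′ end does not by itself tell tissues apart, since all 31 receptor pathway genes had one too. All 18 markers of kidney cell types had an interval at the 5′ end, beside 74.3% of all protein-coding genes, among them Lrp2 of the proximal tubule at 33.06-fold, Umod of the thick ascending limb at 20.82-fold, Aqp2 of the collecting duct at 4.19-fold and Nphs1 of podocytes at 2.88-fold. Of 6 markers of olfactory and vomeronasal neurons, 4 had an interval at the 5′ end, between 1.77 and 27.82-fold, a count to be read beside the same 74.3%. Stoml3 had intervals within 1 kb of the gene but not at the 5′ end, and Cnga2, the olfactory cyclic nucleotide-gated channel, had none. The presence of an interval near these genes shows accessible DNA and not transcription, which was not measured here.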

How the data were processed

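ATAC-seq libraries of 3 WT and 3 Acly cKO kidneys were grouped from their labels. The authors used fastp to trim 50 bp paired-end reads and Bowtie2 (2.3.4.3) to align them to mm39, removed duplicates, kept uniquely mapped reads, called peaks with MACS3 (3.0.0) at a q of 0.05 and removed blacklisted regions with BEDTools (2.29.1). The versions are from the submitters' processing notes, which also name deepTools (3.5.1). The deposited list holds a score, which the authors' caller made from the q-value, and the fold enrichment at each summit, a linear ratio. It also holds the −log10 q as the authors' caller wrote it, and a −log10 p that was not used here. The deposited list of unfiltered summits holds the −log10 q as a score. Depth per library is not known, so its limit on precision could not be given.

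Rows with the same chromosome, start and end were joined to 1 interval, described by the summit with the highest −log10 q, and intervals were matched to genes of GENCODE M39 in Python (3.11.15). Of the 874 summits that the filter removed, 0 lay within 1 kb of a member. Unique words were counted by exact matches of 50 bases on both strands. The scripts were tested on simulated data, where 2000 of 2000 genes received the right intervals and 1000 of 1000 planted motifs were found. No test was run, because a single pooled call has no replicates.

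The text names the 12 members with the highest −log10 q, those whose 5′ end lies inside an interval, and those with the most and the widest intervals, and says where another member is named. The members, gene lists and motifs were chosen with earlier results of these data known. The identity search for the Vmn1r210 sequence was chosen after seeing the data. The RefSeq tables were on another build and were not used.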

Additional observations from a re-analysis of the deposited data

How the results depend on the processing

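Over 8 alternatives, the 4 main values were recomputed as 32 values, of which 20 moved by less than their counting interval or by less than 1.5 times for a count, and 12 moved more. Requiring a q under 1e-05 gave 97.0% of Vmn1r genes without an interval, 1.30% of 5′ ends with one, 9 intervals and a median of 6.15-fold. Requiring at least 5-fold enrichment gave 97.4%, 1.30%, 7 intervals and 8.25-fold. Both act by construction, since weak intervals are dropped. Without any distance around the gene, 0.87% of 5′ ends had an interval. With 5 kb the values were 82.2% of genes without an interval, 12.2% of 5′ ends with one and 57 intervals. The share of all protein-coding genes without an interval lay between 14.2% and 25.6% under the settings run for them. Their share of 5′ ends with an interval was computed at 1 kb only. The receptor shares of 5′ ends at the other distances therefore have no comparison. Placing intervals by their highest summit, adding 118 annotated pseudogenes and requiring a q under 0.01 left each value within those limits. So did leaving out the interval at the start of Nt5c3, an alternative that was chosen after seeing the data and is not among the planned ones. No paired analysis was possible because every value stems from 1 call on pooled libraries, and for that reason no replicate could be left out. The median of 2.03 has an order-statistic interval of 1.83 to 3.08 over the 26 intervals. That range treats the intervals as independent, although Vmn1r4 and Vmn1r69 gave 3 each, and no value below 1.70 was called. It does not cover variation between libraries.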
